A study of Mus musculus with 6 samples.

Results

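The genes of GABA and glycine transmission were followed in cultured retinas of Sall3 knockout mice, with wild-type retinas as controls. The set names 29 genes for making, loading, clearing and sensing these transmitters. A gene was measured by its brightest transcript cluster (a group of array probes along the exons of a putative transcript) that carries a single gene symbol. By this rule 28 of the 29 genes were measured, out of 19611 genes with such a cluster on the array. Gabrg1 was found only where a cluster carried more than 1 symbol, and is not analysed here. Gabra6 was measured but fell below the filter on low signal, which left 27 genes for the test.

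Knockout explants came from mice lacking Sall3, a Spalt-type zinc finger protein that regulates transcription, and wild-type explants were their controls. All samples were C57BL/6 retinas of mixed sex, dissected at postnatal day 0 and kept for 7 days on membrane filters, with RNA of 3 retinas pooled for each of 3 arrays per genotype. The knocked-out allele and the litters are not described, so each p-value reflects only how these 6 samples vary, which may be technical. Each array was an Affymetrix mouse exon array, and values are log2 signals per transcript cluster.

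GABA is made from glutamate by 2 glutamate decarboxylases, is packed with glycine into vesicles by one shared carrier, and acts on chloride channels and on G protein-coupled receptors. Glycine acts on a related family of chloride channels. In the retina, amacrine cells use one or the other of these transmitters, horizontal cells can use GABA, and bipolar, amacrine and ganglion cells carry the receptors.

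Of the arrays, knockout 1 and wild-type 3 stood apart. On the first principal component, which held 31.9% of the variance, knockout 1 lay at -98.5, wild-type 3 at 62.5 and the other 4 arrays between 2.87 and 11.9. Correlations between arrays were 0.940 to 0.970 across genotypes and 0.954 to 0.977 within them. Sall3 itself had log2 signals of 6.24, 6.05 and 6.13 in knockout arrays and 6.21, 6.36 and 6.33 in wild-type arrays, which overlap. Where its probes lie relative to the targeted part is not known, so this does not check the labels. No detection values came with the table, so how far any gene lies above background is unknown. Markers of horizontal cells were below the wild-type mean in 10 of 11 genes, with a median difference of -0.19, and those of cones in 8 of 9, with a median of -0.24. Immediate early genes, which respond to handling and activity, were below it in 11 of 11, with a median of -0.85. Of 17468 named genes tested, 45.3% stood above the wild-type mean, with a median difference of -0.01.

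Among the 27 genes, Gad2 had the smallest p. Gad2, which encodes GAD65, the decarboxylase associated with synaptic vesicles, had higher signals in all knockout arrays. Gad1, which encodes GAD67, the decarboxylase spread through the cell body, had slightly lower ones, as did the adhesion gene Nlgn2. The groups did not overlap for these 3 genes, where 1.7% of 17468 named genes were higher and 11.2% lower without overlap, so the lower values of Gad1 and Nlgn2 do not stand out from that background. No gene passed the adjusted threshold, and most receptors and transporters differed by less than the spread between arrays.

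The promoter sides of both enzyme genes are shown, since these 2 genes encode the enzymes that make GABA. Each line gives the 250 bases before the gene start on the plus strand of mouse assembly GRCm38.p6, from RefSeq, at chr2:22622077-22622326 for Gad2 and chr2:70561879-70562128 for Gad1, with matches to CANNTG, the core bound by basic helix-loop-helix factors, in capitals.
Gad2: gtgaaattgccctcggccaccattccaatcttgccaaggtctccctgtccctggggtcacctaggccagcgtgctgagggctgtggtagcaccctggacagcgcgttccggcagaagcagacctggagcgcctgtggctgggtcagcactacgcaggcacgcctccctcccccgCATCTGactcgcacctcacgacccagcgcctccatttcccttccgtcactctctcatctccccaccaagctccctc
Gad1: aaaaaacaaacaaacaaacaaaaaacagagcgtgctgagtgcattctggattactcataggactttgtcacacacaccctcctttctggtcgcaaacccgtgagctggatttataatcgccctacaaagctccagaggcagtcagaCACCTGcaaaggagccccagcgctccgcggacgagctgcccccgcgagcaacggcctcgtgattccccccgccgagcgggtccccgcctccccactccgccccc
Searched on both strands, CANNTG had 1 match in Gad2 and 1 in Gad1, and 66.2% of 32851 promoters hold it. TATAAA had 0 matches in Gad2 and 1 in Gad1, and 12.4% of promoters hold it. ATATT, a short AT-rich element bound by the related factor SALL4, had 0 matches in both, and 23.3% of promoters hold it. GC made up 64.0% of the Gad2 window and 58.0% of the Gad1 window. Of the 29 genes, 26 had a promoter entry. These matches describe the sequence only.

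Gad2 (cluster tc6875583, chromosome 2) had log2 signals of 10.08, 9.82 and 9.68 in knockout arrays and 9.57, 9.55 and 9.43 in wild-type arrays. All knockout arrays lay above all wild-type arrays, with a gap of 0.11 between the groups. The mean was 9.86 ± 0.20 in knockout and 9.51 ± 0.08 in wild-type explants (SD, n = 3 each). The difference was 0.34 on the log2 scale (SE 0.13, 95% interval 0.01 to 0.67), a 1.27-fold higher signal with an interval of 1.01 to 1.59. It was the only one of the 27 genes with an unadjusted p under 0.05 (limma unadjusted p = 0.0433, adjusted p = 0.748, exact permutation p = 0.1, the smallest that 3 against 3 allows). Over all clusters, 0% of 75632 passed the adjusted threshold of 0.05, where 6.57% (4969) had an unadjusted p under 0.05, 3.32% higher and 3.25% lower in knockout. Among the brightest clusters of 17468 named genes, 1.6% reached that threshold, 0.544% higher and 1.05% lower. With the model fitted on 1 row per gene, 4.45% did, 1.05% higher and 3.4% lower, and Gad2 had a limma unadjusted p of 0.0198 (adjusted p = 0.923). With 1 array left out the Gad2 difference was lowest without knockout 1, at 0.23, and its unadjusted p stayed under 0.05 only without knockout 3. Gad2 was singled out with earlier results of these data known, so its p is no independent support.

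The other clusters of Gad2 had the same sign. Cluster tc6875584 had signals of 8.95, 8.33 and 8.26 in knockout arrays and 7.76, 8.18 and 7.76 in wild-type arrays, without overlap. Its difference was 0.62 (SE 0.23, limma unadjusted p = 0.0369). Cluster tc6875582 had 9.41, 9.04 and 8.94 in knockout arrays and 8.98, 8.91 and 8.43 in wild-type arrays, so here wild-type 1 lay above knockout 3. Its difference was 0.35 (SE 0.20, limma unadjusted p = 0.134). The clusters share a gene and the same RNA, so they are not separate replicates. The setting without knockout 1 and wild-type 3 was chosen after the data were seen. There the 3 differences were 0.19 for the brightest cluster, 0.33 for tc6875584 and 0.04 for tc6875582. Their limma unadjusted p-values were 0.128, 0.155 and 0.679. The median over all named genes in that setting was -0.06.

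**Figure D1:**
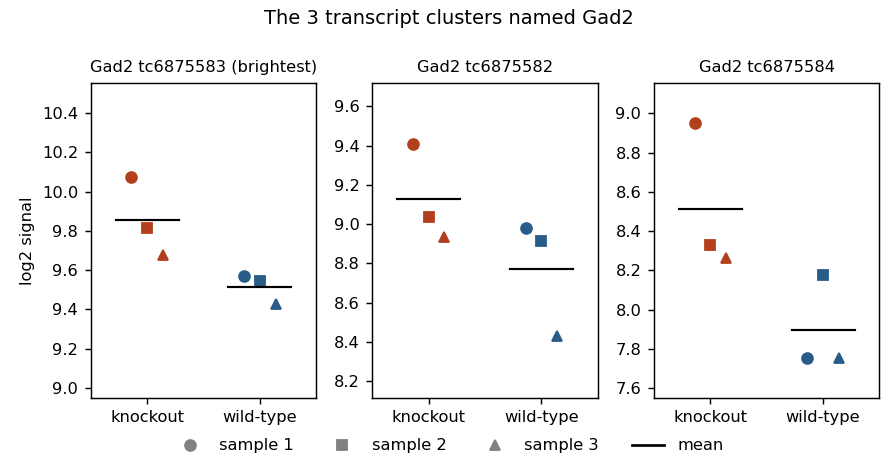
Log2 signal (vertical axes, each spanning the same number of log2 units) of the 3 Gad2 clusters in knockout and wild-type arrays. Points are arrays, with symbols for the sample number, and lines are group means. The groups do not overlap for tc6875583 and tc6875584 and overlap for tc6875582, and knockout 1 is the highest array in all 3.

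Gad1 varied little between arrays. Its log2 signals were 8.52, 8.54 and 8.56 in knockout arrays and 8.64, 8.62 and 8.65 in wild-type arrays, a range of 0.13 over all 6. Every knockout value was under every wild-type value, by a gap of 0.05. The difference was -0.09 (SE 0.09, 95% interval -0.30 to 0.12, limma adjusted p = 0.928). With knockout 1 and wild-type 3 left out it was -0.08. In the fit over all clusters the limma unadjusted p of Gad1 was 0.312. With the model fitted on 1 row per gene it was 0.0694 (SE 0.04, adjusted p = 0.923).

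Set against each other within an array, Gad2 minus Gad1 was 1.56, 1.28 and 1.11 in knockout arrays and 0.93, 0.93 and 0.78 in wild-type arrays. All knockout arrays exceeded all wild-type arrays. This follows from the separate values of both genes and adds no evidence to them, and the measure was chosen after the values were seen.

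Slc32a1 encodes the vesicular carrier for both transmitters and so marks inhibitory neurons as a class. Its signals were 9.98, 9.86 and 9.90 in knockout arrays and 9.90, 9.95 and 10.02 in wild-type arrays. The groups overlapped, and the difference was -0.04 (SE 0.09, 95% interval -0.27 to 0.19). Abat, the transaminase that breaks GABA down, differed by 0.06 (SE 0.10, 95% interval -0.19 to 0.32), and by -0.03 without knockout 1 and wild-type 3. In bulk RNA, fewer cells of a type and less RNA per cell cannot be told apart.

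Markers of the cells that use these transmitters were set beside these values. Of 24 amacrine cell markers tested, 13 were above and 11 below the wild-type mean in knockout explants, with a median difference of 0.01. Their mean log2 signal was 7.73 to 8.03 in knockout arrays and 7.84 to 7.90 in wild-type arrays. By array, the median relative to the wild-type mean was 0.14, -0.09 and -0.09 for knockout samples 1 to 3 and 0.01, 0.05 and -0.04 for wild-type samples 1 to 3, so only knockout 1 was high. One, the neuropeptide gene Npy, had an unadjusted p under 0.05, at -0.57 (SE 0.17, limma adjusted p = 0.669), where 1.6% of named genes had one. The 11 horizontal cell markers had a mean log2 signal of 8.56 to 8.65 in knockout arrays and 8.78 to 8.93 in wild-type arrays, without overlap. Knockout arrays were the lower ones, as for Gad1 and unlike Gad2. Of these markers, 4 had a limma unadjusted p under 0.05, all lower, where 1.05% of named genes were lower at that threshold. The lowest was Lhx1 at -0.77 (SE 0.11, limma adjusted p = 0.539). The part of these cells in the Gad2 and Gad1 values was not tested.

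Uptake genes showed no difference beyond the spread between arrays. Slc6a9, the glycine transporter GlyT1 that glycinergic amacrine cells carry, had log2 signals of 10.58, 10.75 and 10.64 in knockout arrays and 10.63, 10.62 and 10.32 in wild-type arrays. Only wild-type 3 lay apart, and the difference of 0.13 (SE 0.13, 95% interval -0.18 to 0.44) was 0.03 without that array. Slc6a5, the neuronal glycine transporter GlyT2, had 7.36, 6.95 and 6.96 in knockout arrays and 6.99, 7.04 and 7.00 in wild-type arrays. Here knockout 1 alone was high, and the difference of 0.08 (SE 0.14) became -0.06 without it. The GABA transporter genes Slc6a11 and Slc6a13 differed by 0.09 (SE 0.12) and 0.13 (SE 0.15). Both values lay near 0 without knockout 1, at 0.02 and -0.01, where the median over all named genes was -0.05. Glia also carry some of these transporters, and of 12 Müller glia markers tested 7 stood above and 5 below 0. Their median relative to the wild-type mean was 0.16, -0.03 and -0.08 for knockout samples 1 to 3 and -0.01, 0.05 and -0.04 for wild-type samples 1 to 3. Knockout 1 was thus highest here as well, and the part of glia in the transporter values was not tested.

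**Figure D2:**
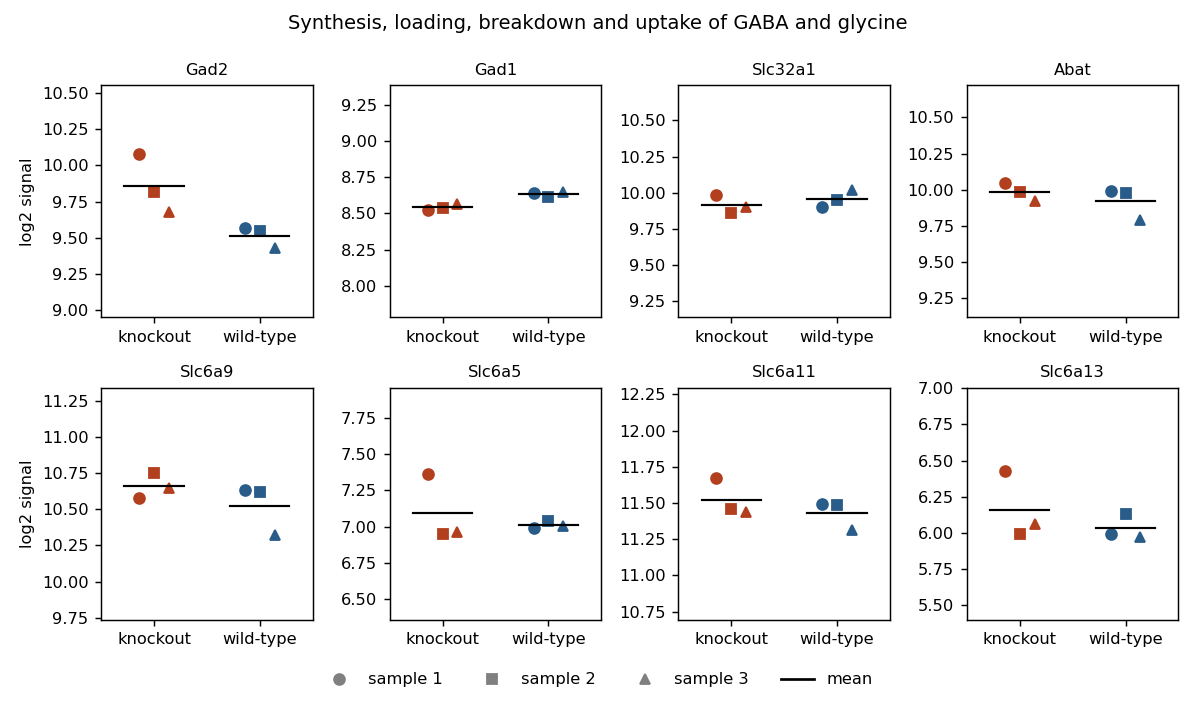
Log2 signal (vertical axes, each spanning the same number of log2 units) of the genes for synthesis, loading, breakdown and uptake in knockout and wild-type arrays. Points are arrays, with symbols for the sample number, and lines are group means. Gad2 lies higher and Gad1 lower in knockout without overlap, while the groups overlap for the other 6 genes.

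The ionotropic GABA receptors are pentamers of subunits, of which alpha, beta and gamma or delta form the classical GABA-A receptor. Of the 8 subunit genes of this kind tested, 6 had differences above 0 and 2 below, from -0.05 to 0.27, and none had an unadjusted p under 0.05. Gabrb2, a beta subunit of synaptic receptors, had log2 signals of 9.98, 9.43 and 9.40 in knockout arrays and 9.53, 9.50 and 8.97 in wild-type arrays. Its difference of 0.27 (SE 0.23, limma adjusted p = 0.922) rested on knockout 1 and wild-type 3. It was 0.09 without either one of them and -0.10 without both. The second cluster of Gabrb2 stood at 0.11 (SE 0.15), and at -0.10 without both arrays.

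Gabra3 stood at 0.16 (SE 0.18), Gabra4 at 0.12 (SE 0.17) and Gabra5 at -0.05 (SE 0.18). These alpha subunits differ in where they are placed on the neuron and in their response to benzodiazepines, to which receptors with Gabra4 do not respond. Without knockout 1 and wild-type 3 the values were -0.10, -0.09 and -0.30, and Gabra5 then had a limma unadjusted p of 0.0289 (adjusted p = 0.515), in a setting where 2.55% of named genes had one under 0.05. A dimmer cluster of Gabra3 stood at 0.48 (SE 0.22, limma unadjusted p = 0.0683), and at 0.26 without both arrays. Gabrb1 stood at 0.16 (SE 0.20), Gabrg3 at 0.06 (SE 0.14) and Gabrd, whose subunit marks receptors outside synapses, at -0.03 (SE 0.10). Over all 6 arrays, the 95% intervals of these 6 genes lay on both sides of 0.

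Gabra2 varied in its own way and is named because its values stood out once seen. Its log2 signals were 8.74, 9.45 and 9.51 in knockout arrays and 8.68, 9.24 and 9.08 in wild-type arrays. Both arrays of sample 1 were low, and the difference was 0.23 (SE 0.26, 95% interval -0.40 to 0.87). Without knockout 1 it was 0.48, and without knockout 1 and wild-type 3 it was 0.52 (SE 0.23, limma unadjusted p = 0.0997). Gabra6, known chiefly from cerebellar granule cells, had signals of 3.08, 2.98 and 3.05 in knockout arrays and 3.23, 3.13 and 3.20 in wild-type arrays. These lay below the filter at 3.70, so the gene entered no test.

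GABA receptor genes lie in groups on the chromosomes, and the differences of neighbours can be set side by side. In the RefSeq order of GRCm38, Gabra4 and Gabrb1 on chromosome 5 have 0 protein-coding genes between them and Gabra2 and Gabra4 have 1, and the 3 differences ranged from 0.12 to 0.23, all within their intervals around 0. On chromosome 7 the adjacent genes Gabrg3 and Gabra5 differed in sign, but stood at -0.07 and -0.23 without knockout 1. Without that array, on chromosome 5, Gabra2 stood at 0.48, Gabra4 at -0.05 and Gabrb1 at 0.03. On chromosome 4 the adjacent genes Gabrr1 and Gabrr2 both stood at -0.07, and at -0.28 and -0.25 without knockout 1. The median over all named genes was -0.05 without knockout 1. Whether neighbours differed from other pairs was not tested.

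The Gabrr genes encode subunits of the slowly closing GABA receptors at bipolar cell terminals. Gabrr3, named after its values were seen, had log2 signals of 8.27, 7.48 and 7.17 in knockout arrays and 7.73, 7.67 and 7.53 in wild-type arrays. Knockout arrays lay on both sides of the wild-type arrays, and the difference was 0.00 (SE 0.29, 95% interval -0.70 to 0.70). For Gabrr1 it was -0.07 (SE 0.22) and for Gabrr2 -0.07 (SE 0.19).

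All 3 Gabrr genes were highest in knockout 1 and lowest in knockout 3. Without knockout 1 and wild-type 3 they stood at -0.37 for Gabrr1, -0.31 for Gabrr2 and -0.37 for Gabrr3. Of these, Gabrr2 had a limma unadjusted p of 0.0386 (adjusted p = 0.535), and Gabrr1 and Gabrr3 had 0.0673 and 0.0734. The median of 13 bipolar cell markers relative to the wild-type mean was 0.23, -0.01 and -0.08 for knockout samples 1 to 3 and 0.00, 0.05 and -0.09 for wild-type samples 1 to 3. Knockout 1 was thus highest in that list too, and the part of bipolar cells in the Gabrr values was not tested. The metabotropic GABA-B receptor genes Gabbr1 and Gabbr2, which act through G proteins, stood at 0.00 (SE 0.09, 95% interval -0.22 to 0.23) and 0.01 (SE 0.10, 95% interval -0.23 to 0.25).

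Among glycine receptor genes, Glra3, an alpha subunit, had both the largest difference of the set and the widest range over arrays, 1.91. It had log2 signals of 8.46, 7.35 and 7.30 in knockout arrays and 7.50, 7.36 and 6.55 in wild-type arrays. Knockout 1 was far above and wild-type 3 far below the rest, and the other 4 arrays lay within 7.30 to 7.50. The difference was 0.57 (SE 0.41, 95% interval -0.43 to 1.56, limma adjusted p = 0.896), larger in size than that of 99.2% of named genes. It was 0.18 without knockout 1, 0.27 without wild-type 3 and -0.11 without both.

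Glra2, the alpha subunit known from early development, had 10.91, 10.25 and 10.26 in knockout arrays and 10.34, 10.41 and 9.68 in wild-type arrays. The pattern was that of Glra3, with a difference of 0.33 (SE 0.27, limma adjusted p = 0.920), and of -0.12 without both arrays. Glra1, the adult alpha subunit of spinal cord, stood at 0.10 (SE 0.16) and -0.08 without both arrays. Glrb, the beta subunit that ties the receptor to its scaffold, stood at 0.11 (SE 0.17) and at -0.13 without both.

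At the postsynaptic side, gephyrin (Gphn), the scaffold under glycine and GABA-A receptors, stood at 0.12 (SE 0.13, 95% interval -0.20 to 0.43), and at -0.04 without both arrays. Its dimmer cluster stood at 0.03 (SE 0.22), and at -0.22 without them. Nlgn2, which encodes neuroligin 2, an adhesion protein of inhibitory synapses, had log2 signals of 9.74, 9.72 and 9.71 in knockout arrays and 9.82, 9.80 and 9.95 in wild-type arrays. The groups did not overlap, with knockout lower by a gap of 0.06. The difference was -0.13 (SE 0.09, 95% interval -0.36 to 0.10, limma unadjusted p = 0.201, adjusted p = 0.892), and -0.10 without knockout 1 and wild-type 3.

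**Figure D3:**
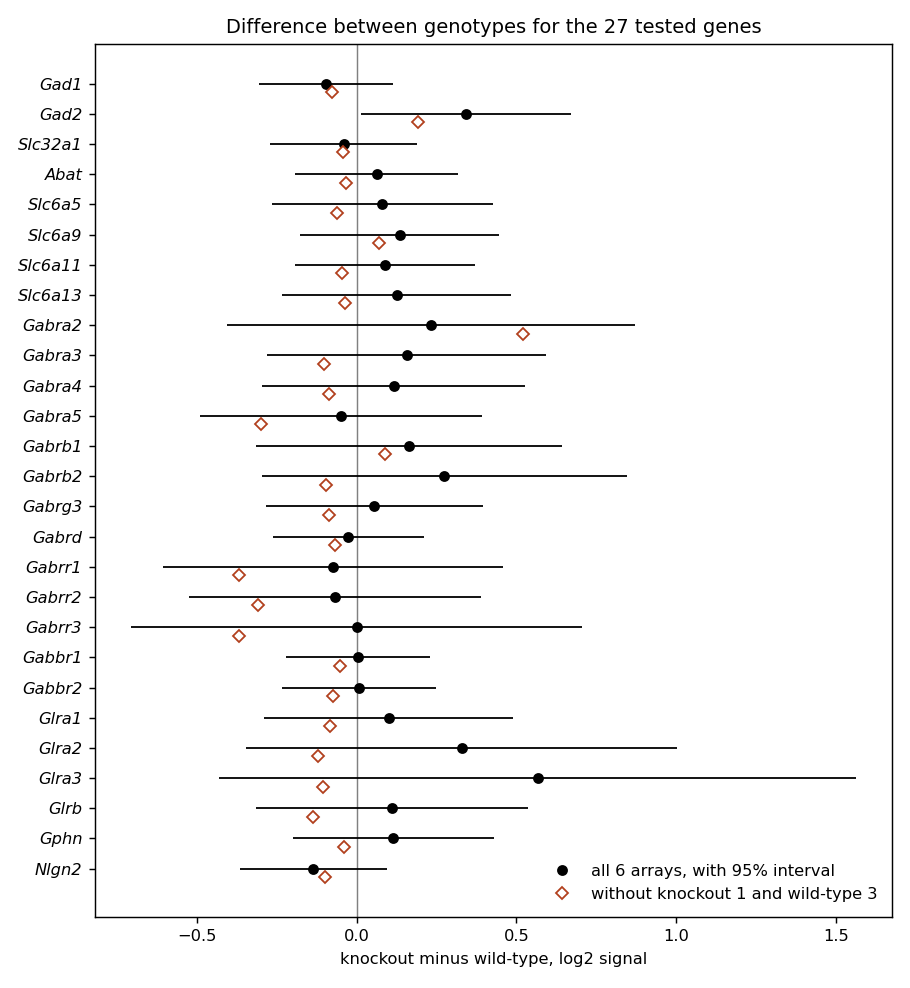
Difference between knockout and wild-type explants (horizontal axis, log2 signal) for the 27 tested genes, ordered by role. Black points with lines give the value over 6 arrays and its 95% interval, and open diamonds the value without knockout 1 and wild-type 3. The Gad2 interval alone lies above 0, and 16 genes have a diamond on the other side of 0 from their point. In the setting of the diamonds 16.6% of named genes stood above 0, with a median of -0.06.

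Counted over the set, knockout and wild-type arrays did not overlap for 3 of 27 genes, 1 higher (Gad2) and 2 lower (Gad1 and Nlgn2). These are 3.7% and 7.41% of the tested genes. Among 17468 named genes the groups did not overlap for 1.7% higher and 11.2% lower, and among all clusters for 4.63% higher and 7.62% lower. The count of lower genes was thus no larger than that background, and 1 higher gene is too few to set against it. Of the 27 genes, 20 stood above 0 (74.1%), with a median difference of 0.09, against 45.3% and a median of -0.01 over all named genes.

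The 2 arrays that stood apart held many of the highest and lowest values, and their part in this lean was not tested. Knockout 1 was the highest array in 21 of 27 genes, against 45.6% of named genes, and wild-type 3 the lowest in 14, against 32.2%. Both held together in 12 genes (44.4%), against 22% of named genes. The median over the 27 genes relative to the wild-type mean was 0.32, -0.04 and -0.04 for knockout samples 1 to 3 and 0.04, 0.06 and -0.10 for wild-type samples 1 to 3. Without knockout 1 alone the median difference of the 27 genes was -0.02, against -0.05 over all named genes. Without wild-type 3 alone it was 0.03, against -0.03. Without both, a setting chosen after the data were seen, 4 genes stood above 0 and 23 below, with a median of -0.08. In that setting 16.6% of named genes stood above 0 and their median was -0.06. The 4 genes were Gad2, Slc6a9, Gabra2 and Gabrb1.

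**Figure D4:**
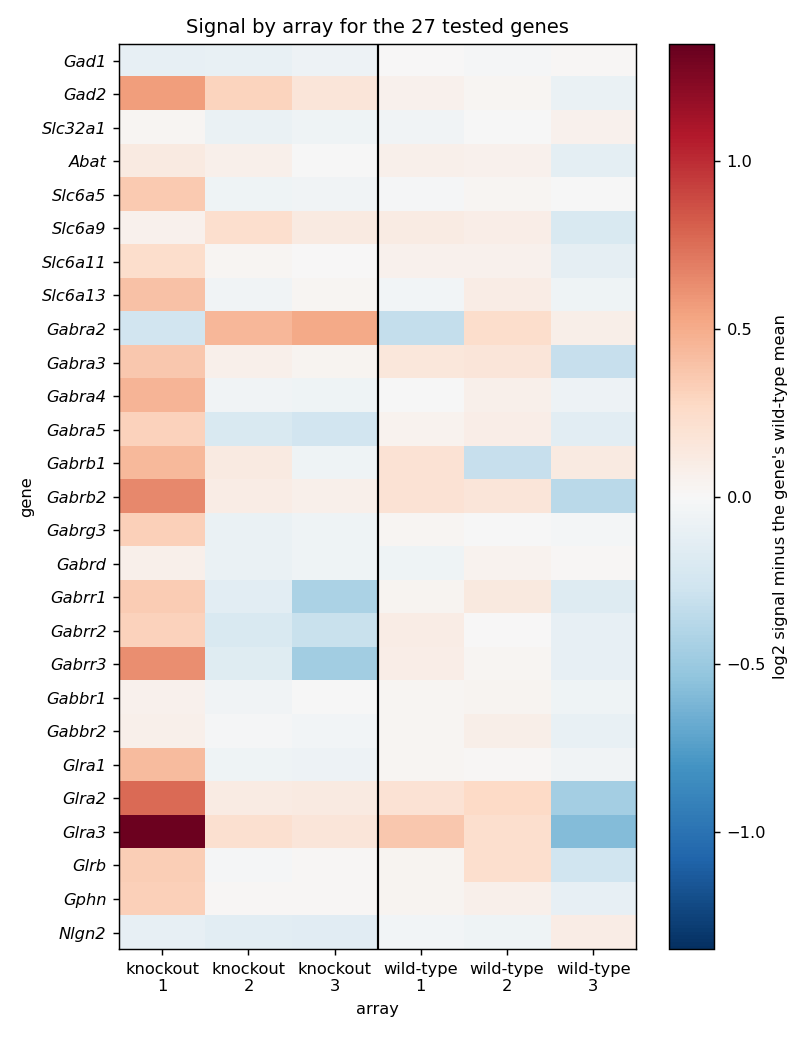
Log2 signal minus the gene's own wild-type mean (colour scale) for the 27 tested genes (rows, ordered by role) in the 6 arrays (columns). Red cells gather in knockout 1 and blue cells in wild-type 3, strongest for Glra3 at 1.33 and -0.58.

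The other genes of inhibitory transmission were taken as a list of 58, of which 47 were tested. None had an unadjusted p under 0.05 in limma, 15 stood above and 32 below 0, and the median was -0.02. The groups did not overlap for 4, all lower, a share under the 11.2% of named genes that were lower without overlap. Of 20 partners of the receptors, the one with the smallest p was Kctd12, an auxiliary subunit of GABA-B receptors, at -0.23 (SE 0.11, limma unadjusted p = 0.0873). Its signals were 8.67, 8.49 and 8.53 in knockout arrays and 8.94, 8.74 and 8.70 in wild-type arrays.

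Of 5 genes that set the chloride gradient on which these channels depend, Slc12a5, the chloride exporter KCC2 of mature neurons, stood at -0.11 (SE 0.09). Slc12a2, the importer NKCC1, stood at -0.11 (SE 0.10) as well. For both, no knockout array reached the wild-type arrays, yet their limma unadjusted p-values were 0.263 and 0.300. Of 19 genes for precursor supply, breakdown and uptake, Phgdh, which starts serine synthesis, had the smallest p, at -0.17 (SE 0.09, limma unadjusted p = 0.118).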

How the data were processed

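RNA of 6 explant samples was hybridised to 1 array each. The deposited table holds 100843 transcript clusters as log2 values made by the authors. The log base was inferred from the range of 1.48 to 13.86. Expression Console by Affymetrix, PLIER summaries and mm8 appear, per the submitters' processing notes; how background and scaling were treated is not given in the sources used here. A background signal would shrink differences.

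Column medians differed by 0.103, over a tolerance of 0.1, so arrays were quantile normalized. Clusters whose mean reached the 25th percentile (3.70) were kept, 75632 in all. Names came from the platform annotation (22608 clusters with 1 symbol, 1462 with several, 76773 with none). Of the single symbols, 22101 were matched by gene ID to RefSeq of GRCm38, whose symbol was then used. Groups came from the sample titles. Knockout and wild-type were compared by a two-sided moderated test (limma 3.58.1, lmFit then eBayes, under R 4.3.3) with 4 residual degrees of freedom. The test draws the variance of each cluster toward that of all kept clusters. The p of a gene that varies little thus also reflects the spread of other clusters. The median residual SD was 0.25 over kept clusters and 0.10 over named genes. Adjusted p-values follow Benjamini-Hochberg over the 75632 clusters, at a threshold of 0.05. Differences are knockout minus wild-type. The number of arrays limits the precision. The steps were tested on simulated data. The planted changes were larger than the differences of the GABA and glycine genes, and no simulated array stood apart. That test therefore does not show how the steps treat data like these. The genes and lists were chosen with earlier results of these data known. Array values were given for Gad1, Gad2, Slc32a1, Slc6a9 and Slc6a5, for genes whose groups did not overlap and for the 6 smallest p-values. Those of Gabra2 and Gabrr3 were added after their values were seen. Of other lists, genes with the smallest p were named. Alternatives changed the scaling, filter, variance model, weights, pairing, arrays and rows. Figures used matplotlib 3.10.9.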

Additional observations from a re-analysis of the deposited data

How the results depend on the processing

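In all 18 alternative settings 0 clusters passed the adjusted threshold in limma, and the smallest adjusted p of any of the 27 genes was 0.515. Gad2 stayed above 0 in all of them, from 0.19 to 0.44, with limma unadjusted p-values of 0.0183 to 0.128 and adjusted p-values of 0.576 to 0.923. With 1 array left out its difference was 0.23 to 0.43, the lowest without knockout 1. Gad1, Slc32a1, Nlgn2, Slc6a9, Gabra2 and Gabrb1 also kept their sign in all settings, and the other 20 genes changed sign in at least 1. The number of genes with an unadjusted p under 0.05, 1 in the reported setting, was 0 with array weights, 0 with the replicate block, 2 with 1 row per gene and an intensity trend (Gad2 and Nlgn2), 0 to 1 with 1 array left out, and 2 without knockout 1 and wild-type 3 (Gabra5 and Gabrr2), a setting chosen after seeing the data in which 9.05% of clusters and 2.55% of named genes had one. With 1 array left out it was 1 without knockout 3 and 0 without any other array.

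Deviations of same-numbered arrays from their group means correlated at 0.01, -0.09 and 0.08 for samples 1 to 3. Against arrays of other numbers the correlations were -0.13 to 0.14 for sample 1 and -0.01 to 0.09 for sample 2. For sample 3 they were -0.09 to -0.004. With knockout 1 and wild-type 3 standing apart, these values cannot decide whether the sample numbers pair the arrays. The fit with the replicate block gave Gad2 the same 0.34 with a limma unadjusted p of 0.0532. The block lowered the p of some genes and raised that of others. For Glra3 the limma unadjusted p was 0.0706 with the block and 0.213 without it, and for Gad1 0.455 and 0.312.

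The median of the 27 genes was -0.021 with array weights, -0.077 without knockout 1 and wild-type 3, and -0.025 to 0.14 with 1 array left out, lowest without knockout 1; without wild-type 3 it was 0.032. Gabrd stood at 0.020 with the values as deposited and at 0.022 with median centring. With array weights Slc6a5 stood at -0.021, Gabra4 at -0.021, Glra1 at -0.020, Gabbr1 at -0.029, Glrb at -0.028, Gabrg3 at -0.039, Gabbr2 at -0.037 and Gabrr3 at -0.23. Without knockout 1 and wild-type 3 the changed signs were those of Abat (-0.033), Slc6a5 (-0.060), Slc6a11 (-0.045), Slc6a13 (-0.037), Gabra3 (-0.10), Gabra4 (-0.086), Gabrb2 (-0.10), Gabrg3 (-0.086), Gabrr3 (-0.37), Gabbr1 (-0.052), Gabbr2 (-0.074), Glra1 (-0.083), Glra2 (-0.12), Glra3 (-0.11), Glrb (-0.13) and Gphn (-0.040).

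With 1 array left out, the genes that changed sign ranged from -0.00083 to 0.10 for Abat, -0.025 to 0.028 for Gabbr1, -0.041 to 0.045 for Gabbr2, -0.054 to 0.20 for Gabra4, -0.23 to 0.053 for Gabra5, -0.072 to 0.0049 for Gabrd, -0.074 to 0.13 for Gabrg3, -0.28 to 0.10 for Gabrr1, -0.25 to 0.052 for Gabrr2, -0.31 to 0.23 for Gabrr3, -0.060 to 0.18 for Glra1, -0.021 to 0.23 for Glrb, -0.0072 to 0.21 for Slc6a13 and -0.055 to 0.15 for Slc6a5. The cause of these changes was not tested. With 3 arrays per genotype the intervals are wide, and without detection values the precision of dim genes is unknown.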
